A study of Mus musculus with 13 samples.

Results

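Thymic iNKT cells are T cells, yet small amounts of miRNAs that are best known from red cells, liver, myeloid cells and stroma were counted in every library sorted from them. The miRNAs described here are 9 hairpins of 1127 in the precursor table and 15 arms of 1297 in the mature table. They were chosen by name, as the hairpins mmu-mir-451a, mmu-mir-486a and mmu-mir-144 (erythroid), mmu-mir-122 (liver), mmu-mir-223 (myeloid) and mmu-mir-199a-2, mmu-mir-214, mmu-mir-143 and mmu-mir-145a (stromal) and as the mature arms of the same miRNAs. The choice was made with earlier results of these data known. The species prefix mmu is left out from here on. The arms miR-214-5p and miR-143-5p were not analysed here. The question asked of them was whether they differ between genotypes and whether, mouse by mouse within WT, markers of the same cell type were high in the same libraries, as RNA of carried-over cells would give.

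The experiment is small RNA-seq of thymic iNKT cells from 6 WT mice (C57BL/6) and 7 *Tet2/3* DKO mice (*Tet2*-/- *Tet3*flx/flx CD4 cre), all aged 21 to 25 days, of both sexes, with 1 library per mouse. The *Tet2* deletion is present in every cell of the animal, while the cre, driven by *Cd4* sequences, removes *Tet3* from T lineage cells, and the labels give the WT mice none of these alleles. Thymocytes were depleted of CD24+ cells, and live cells positive for TCRβ and for the lipid-loaded tetramer were sorted by FACS. CD24 is also found on mouse red cells, and erythroid, liver, myeloid and stromal cells lack TCRβ.

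A miRNA is cut from a primary transcript as a hairpin by DROSHA, and the hairpin is then cut by DICER to mature arms that guide ARGONAUTE proteins to mRNAs. The miRNA miR-451a is an exception, since its short hairpin skips DICER and is cut by AGO2. It is made together with miR-144 in maturing red cells, where GATA1 drives their shared transcript, and miR-486 lies in the *Ank1* gene of red cells and muscle. The liver miRNA miR-122 is the dominant miRNA of hepatocytes and is also carried in blood plasma, miR-223 is abundant in granulocytes and monocytes and restrains granulocyte production, miR-199a and miR-214 come from the *Dnm3os* transcript of mesenchymal cells, and miR-143 and miR-145 from a shared transcript of smooth muscle and fibroblasts.

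The mature sequences below show which of these markers can be told apart by their reads, with the seed (bases 2 to 8) in capitals. They are RefSeq sequences on GRCm38.p6, the build the labels name as mm10.
miR-451a: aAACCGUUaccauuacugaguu
miR-144-3p: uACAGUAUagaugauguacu
miR-223-3p: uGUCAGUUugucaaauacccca
miR-199a-3p: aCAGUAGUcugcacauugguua
miR-199b-3p: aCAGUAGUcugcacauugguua
miR-214-3p: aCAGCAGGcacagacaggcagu
Of these, miR-199a-3p and miR-199b-3p are the same sequence, and they had equal counts in 13 of 13 libraries, so their hairpins cannot be separated. The others have seeds of their own. The hairpins mir-144 (chr11:78073005-78073070, plus strand) and mir-451a (chr11:78073170-78073241, plus strand) lie 99 bases apart outside any other annotated gene except mir-451b. Both mir-199a-2 (chr1:162217814-162217923) and mir-214 (chr1:162223368-162223477) lie on the plus strand in exons of the noncoding *Dnm3os*, within an intron of *Dnm3* on the other strand. The hairpin mir-223 (chrX:96242817-96242926, plus strand) lies in an exon of the noncoding *F630028O10Rik*.

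The hairpin of mir-451a is shown because its annotated partner cannot be told from it, with the mature sequence in capitals.
mir-451a: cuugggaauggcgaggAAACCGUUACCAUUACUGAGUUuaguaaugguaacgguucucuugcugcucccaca
The annotated hairpin mir-451b is the exact reverse complement of these 72 bases, and it had the same count as mir-451a in 13 of 13 libraries. In the same way mir-486b had the count of mir-486a in 10 of 13 libraries and mir-122b that of mir-122 in 12 of 13, with differences of at most 2 counts, and mir-199a-1 and mir-199b differed from mir-199a-2 by at most 4 counts. Each such group is therefore described once.

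All of these markers were scarce. The 9 hairpins together held between 0.0482% and 0.113% of the precursor counts of a WT library and between 0.0126% and 0.0391% of those of a *Tet2/3* DKO library, so the genotypes did not overlap. The 15 arms held between 0.0216% and 0.107% of mature counts in a WT library but only 0.00532% to 0.0136% in a *Tet2/3* DKO library. WT libraries were shallower, with 469117 to 1110226 precursor counts against 728653 to 1910526, and 1110852 to 2582057 mature counts against 1837631 to 4361963. Levels are given in CPM, the count relative to the total of its library, scaled by TMM, the trimmed mean scaling of edgeR. At these depths 3 counts, the upper limit that a count of 0 allows, correspond to between 1.42 and 6.91 CPM for hairpins and between 0.633 and 2.82 CPM for arms. Fewer contributing cells and less RNA per cell cannot be told apart in such bulk samples.

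The markers were lower in *Tet2/3* DKO libraries wherever they could be tested. Of the 9 hairpins, 5 passed the filter on low counts, and by edgeR's quasi-likelihood test 5 of the 5 were lower and 0 higher (adjusted p under 0.05). Over the 350 tested hairpins 27.1% were lower, 32.6% higher and 59.7% either. Of the 15 arms, 9 passed it, and 9 of the 9 were lower and 0 higher, against 27.4%, 28.2% and 55.6% of the 401 tested mature miRNAs. The median log2 fold change of the tested members was -3.00 for hairpins and -3.07 for arms, against 0.02 and -0.01 over all tested miRNAs. These counts and medians lean toward falls, because a scarce miRNA that passes the filter through its WT libraries alone has to be lower in the others. The members were also chosen with earlier results of these data known, so the shares over all miRNAs are no independent yardstick. Over the members above the level of the filter in all 13 libraries, 2 hairpins and 2 arms, the medians were -2.64 and -1.75. The level of the filter was about 9.01 CPM for hairpins and 3.89 CPM for arms. It was reached in all 13 libraries by mir-451a, mir-486a, miR-486a-5p and miR-143-3p, but in only 2 of 7 *Tet2/3* DKO libraries by mir-199a-2 and in 1 of 7 by mir-214. For the arms miR-451a, miR-145a-5p, miR-214-3p and miR-486a-3p it was reached in 0, 1, 1 and 1 of 7.

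**Figure D1:**
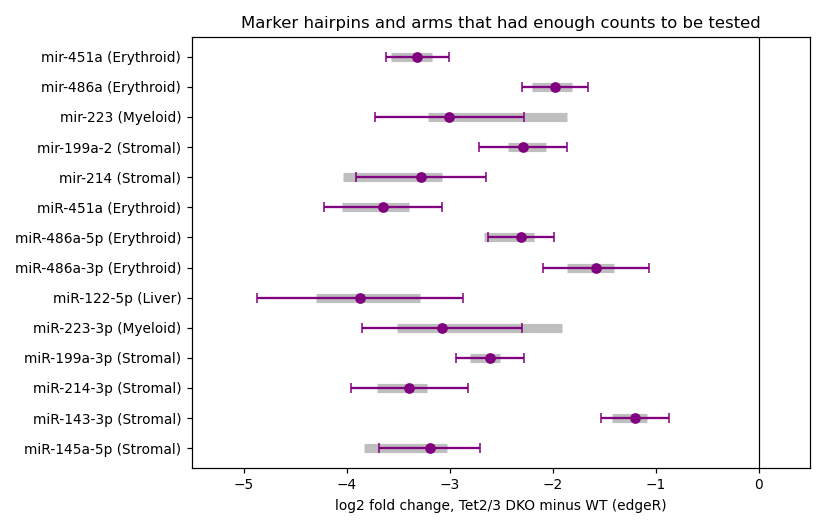
Log2 fold change of *Tet2/3* DKO against WT (horizontal axis, edgeR) for the 5 marker hairpins and 9 marker arms that were tested. Points are estimates, purple bars are ± 1 SE, and grey bands span the values when each mouse was left out in turn; all lie below 0, from -1.20 for miR-143-3p to -3.87 for miR-122-5p, and the widest bands toward 0 are those of mir-223 and miR-223-3p.

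Among the erythroid markers, the hairpin mir-451a showed the cleanest difference. Its lowest, median and highest levels were 119, 198.96 and 232 CPM in WT and 8.99, 13.8 and 42.5 CPM in *Tet2/3* DKO. The genotypes were far apart, and the 6 WT mice differed from each other by a factor of up to 1.95. The mean was 188 ± 42.3 CPM (SD, n = 6) in WT and 19.7 ± 12.4 CPM (SD, n = 7) in *Tet2/3* DKO. The log2 fold change was -3.31 (SE 0.31 by the edgeR quasi-likelihood fit, adjusted p = 5.3e-08).

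The hairpin mir-486a was the most abundant marker, at 340.3, 629 and 1003 CPM (lowest, median, highest) in WT and 81.4, 137 and 313 CPM in *Tet2/3* DKO. On the TMM scale the highest *Tet2/3* DKO mouse, replicate 5, came close to the lowest WT mouse, replicate 2, without reaching it. By library total alone, *Tet2/3* DKO replicate 5 (524 of 1578644 counts) lay above WT replicate 2 (186 of 607929), so this separation depends on the scaling. The log2 fold change of mir-486a was -1.97 (SE 0.32 by the same fit, adjusted p = 0.000142). On that scale *Tet2/3* DKO mice were all below WT mice for 4 of the 5 tested marker hairpins. The share over all tested hairpins was 14%, and 32% were separate in either direction. By library total alone, mir-486a and mir-223 were not separate. The count also leans toward falls, since mir-199a-2 reached the filter level in only 2 of 7 *Tet2/3* DKO libraries. Of the 2 hairpins above that level in all 13 libraries, 2 were separate with TMM.

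The third erythroid hairpin, mir-144, was almost absent, with 10 counts in 6 WT libraries together and 3 in 7 *Tet2/3* DKO libraries. Its difference in mean log2 CPM was -0.96 (exact two-sided permutation test, p = 0.0245), but without the filter on low counts edgeR gave it an adjusted p of 0.211. Its cluster partner mir-451a had 875 counts in the same WT libraries.

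The mature arms followed. Mature miR-451a was at 6.15, 15.0 and 33.0 CPM in WT and at 0, 0.898 and 2.81 CPM in *Tet2/3* DKO, that is 8 to 52 counts in a WT library and 0 to 11 in a *Tet2/3* DKO library. No *Tet2/3* DKO mouse reached the lowest WT mouse (log2 fold change -3.64, SE 0.57 by the edgeR quasi-likelihood fit, adjusted p = 1.92e-05). For miR-486a-5p the levels were 102, 127 and 212 CPM in WT and 14.1, 22.8 and 65.4 CPM in *Tet2/3* DKO. The groups were again separate, at a log2 fold change of -2.30 (SE 0.32 by the same fit, adjusted p = 1.33e-05).

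The passenger arm miR-486a-3p was scarcer and its groups overlapped. Its levels were 2.05, 6.27 and 9.40 CPM in WT and 0.438, 2.24 and 4.27 CPM in *Tet2/3* DKO. Its log2 fold change was -1.58 (SE 0.51 by the edgeR quasi-likelihood fit, adjusted p = 0.0125). With no filter on low counts the adjusted p was 0.0686. For miR-144-3p the 6 WT libraries held 0 to 28 counts and the 7 *Tet2/3* DKO libraries 0 to 7, a difference of -2.35 in mean log2 CPM (exact two-sided permutation p = 0.0105). The only WT library without a count was that of replicate 5, whose miR-486a-5p was the highest, and a count of 0 there allows up to 1.53 CPM. The passenger arm miR-144-5p had 3 counts in WT, all in replicate 3, and 0 in *Tet2/3* DKO.

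The erythroid hairpins did not fall by the same factor. Within a library, mir-486a had 2.30 to 4.63 counts for each count of mir-451a in WT (median 3.59) and 3.22 to 24.5 in *Tet2/3* DKO (median 9.52). The ranges overlapped, but most *Tet2/3* DKO libraries lay above the WT range. The mean log2 ratio, with 0.5 added to each count, rose by 1.39, from 1.76 ± 0.43 (SD, n = 6) to 3.15 ± 0.92 (SD, n = 7), in an exact two-sided permutation test chosen after the values were seen (p = 0.00816). These ratios are taken within libraries and do not depend on the scaling.

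**Figure D2:**
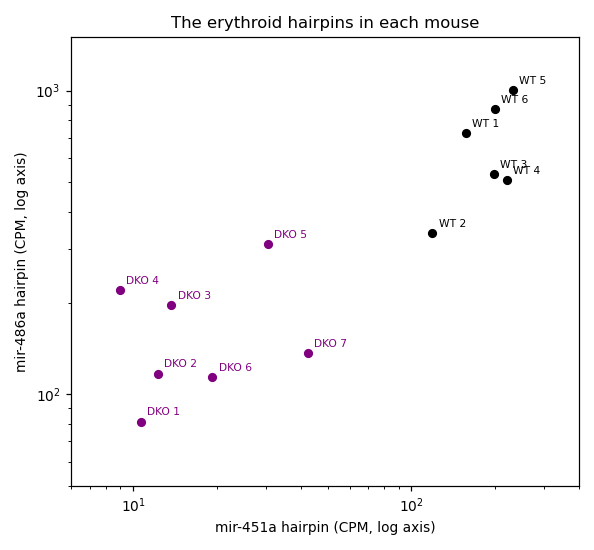
Level of mir-451a (horizontal, CPM, log axis) and mir-486a (vertical, CPM, log axis) in each of 6 WT (black) and 7 *Tet2/3* DKO (purple) libraries, each point labelled with its mouse. The WT libraries lie at the upper right, from 119 to 232 CPM of mir-451a, and the *Tet2/3* DKO libraries, from 8.99 to 42.5 CPM, scatter with no common line.

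The liver miRNA miR-122-5p was dominated by single WT mice. It reached 883 CPM in WT replicate 5 (1730 counts) and 762 CPM in WT replicate 6 (1199 counts), but the other 4 WT mice had between 46.9 and 86.5 CPM. In *Tet2/3* DKO the lowest, median and highest levels were 3.16, 17.7 and 49.3 CPM, and replicate 5, the highest, was above the lowest WT mouse. Replicates 5 and 6 were the highest of this genotype as well, at 49.3 and 43.6 CPM, with 21.5 CPM in the next mouse. The log2 fold change was -3.87 (SE 1.00 by the edgeR quasi-likelihood fit, adjusted p = 0.00625). Without WT replicates 5 and 6 it was -1.58 and no longer past the threshold (adjusted p = 0.0717 by the same fit), an alternative chosen after the values were seen. The size therefore depends on WT replicates 5 and 6, and the call was lost without them. That fit kept *Tet2/3* DKO replicates 5 and 6, the highest of their genotype, so it leans toward a smaller difference. Among the remaining mice of both genotypes, WT lay at 46.9 to 86.5 CPM and *Tet2/3* DKO at 3.16 to 21.5 CPM, which was not tested.

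The hairpin mir-122 repeated this split only for WT replicate 6. Its WT libraries held 4 to 16 counts each and its *Tet2/3* DKO libraries 0 to 5, that is 4.25 to 22.8 and 0 to 2.99 CPM, with no overlap between genotypes, and with the highest level in WT replicate 6 (22.8 CPM, 16 counts) but 9.23 CPM in WT replicate 5, below the 16.5 CPM of replicate 2. The difference in mean log2 CPM was -2.29, with an exact permutation p of 0.000583, the smallest that this design can give, and edgeR without the filter on low counts gave an adjusted p of 0.00165. The arm miR-122-3p had 2 counts in WT and 0 in *Tet2/3* DKO.

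The myeloid hairpin mir-223 was likewise led by a single WT mouse. Its level was 310.4 CPM in WT replicate 3 (304 counts) and between 20.1 and 60.0 CPM in the other WT mice, against 0, 12.9 and 19.2 CPM (lowest, median, highest) in *Tet2/3* DKO. On the TMM scale the lowest WT mouse, replicate 2, was just above the highest *Tet2/3* DKO mouse, replicate 2. By library total alone the order was reversed, with 11 of 607929 counts in WT replicate 2 and 36 of 1565031 in *Tet2/3* DKO replicate 2. The log2 fold change was -3.00 (SE 0.72 by the edgeR quasi-likelihood fit, adjusted p = 0.00249) and -1.86 without WT replicate 3 (adjusted p = 0.0065 by the same fit).

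Its arm miR-223-3p repeated the pattern, with 91.7 CPM in WT replicate 3 and 2.31 to 16.9 CPM in the other WT mice. *Tet2/3* DKO mice had 0.633, 3.33 and 6.57 CPM, and the groups overlapped through WT replicate 2. Its log2 fold change was -3.07 (SE 0.78 by the edgeR quasi-likelihood fit, adjusted p = 0.00401) and -1.90 without WT replicate 3 (adjusted p = 0.00848 by the same fit). The arm miR-223-5p had 5 counts in WT and 1 in *Tet2/3* DKO.

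The stromal hairpins mir-199a-2 and mir-214, both annotated in *Dnm3os*, were lower as well. Counts of mir-199a-2 cannot be separated from those of mir-199a-1 and mir-199b, which lie in introns of *Dnm2* and *Dnm1*. For mir-199a-2 the levels were 12.8, 27.65 and 47.1 CPM in WT and 0.809, 6.15 and 9.40 CPM in *Tet2/3* DKO, without overlap (log2 fold change -2.29, SE 0.43 by the edgeR quasi-likelihood fit, adjusted p = 0.000185). For mir-214 they were 12.8, 28.0 and 48.4 CPM in WT and 0, 1.60 and 14.2 CPM in *Tet2/3* DKO. *Tet2/3* DKO replicate 7 was above WT replicate 2, so the groups overlapped. The log2 fold change was -3.28 (SE 0.63 by the same fit, adjusted p = 0.000219) and -4.04 without *Tet2/3* DKO replicate 7, the shallowest library of its genotype.

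Their arms showed the same directions. Levels of miR-199a-3p were 23.7, 40.7 and 63.3 CPM in WT and 1.35, 6.79 and 11.1 CPM in *Tet2/3* DKO, in separate groups (log2 fold change -2.61, SE 0.33 by the edgeR quasi-likelihood fit, adjusted p = 1.18e-06). Levels of miR-214-3p were 2.69, 17.8 and 26.0 CPM in WT and 0, 1.05 and 3.59 CPM in *Tet2/3* DKO, and only WT replicate 4 fell among the *Tet2/3* DKO mice (log2 fold change -3.39, SE 0.57 by the same fit, adjusted p = 3.58e-05). The arm miR-199a-5p had 4 counts in WT and 1 in *Tet2/3* DKO.

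Of the other stromal pair, the hairpins were near the limit of detection. For mir-143 the levels were 4.28, 10.6 and 30.0 CPM in WT and 0, 1.89 and 7.28 CPM in *Tet2/3* DKO, and the groups overlapped. The difference in mean log2 CPM was -1.78 (exact permutation p = 0.00641), and edgeR without the filter on low counts gave an adjusted p of 0.0161. The hairpin mir-145a had 15 counts in WT and 11 in *Tet2/3* DKO, and a difference was not detectable at this depth (-0.57, exact permutation p = 0.296).

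The arms of that pair differed from each other in size of change. Levels of miR-145a-5p, which promotes the contractile state of smooth muscle, were 10.3, 17.9 and 36.7 CPM in WT and 0.422, 1.42 and 7.63 CPM in *Tet2/3* DKO. On the TMM scale no *Tet2/3* DKO mouse reached the WT mice. By library total alone, *Tet2/3* DKO replicate 7 (17 of 1837631 counts) lay above WT replicate 4 (23 of 2582057). The log2 fold change was -3.19 (SE 0.49 by the edgeR quasi-likelihood fit, adjusted p = 1.33e-05), and without *Tet2/3* DKO replicate 7 it was -3.83. Levels of miR-143-3p were 9.70, 14.4 and 23.3 CPM in WT and 3.80, 5.57 and 10.95 CPM in *Tet2/3* DKO. Its log2 fold change, -1.20 (SE 0.33 by the same fit, adjusted p = 0.00404), was the smallest of the 14 tested hairpins and arms, and *Tet2/3* DKO replicate 2 was above WT replicate 5. On the TMM scale *Tet2/3* DKO mice were all below WT mice for 4 of the 9 tested arms. The share over all tested mature miRNAs was 14.5%, and 27.2% were separate in either direction. This count leans toward falls, since miR-451a reached the filter level in 0 of 7 *Tet2/3* DKO libraries and miR-145a-5p in 1 of 7. Of the 2 arms above that level in all 13 libraries, 1 was separate. The arm miR-145a-3p had 1 count in each genotype.

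**Figure D3:**
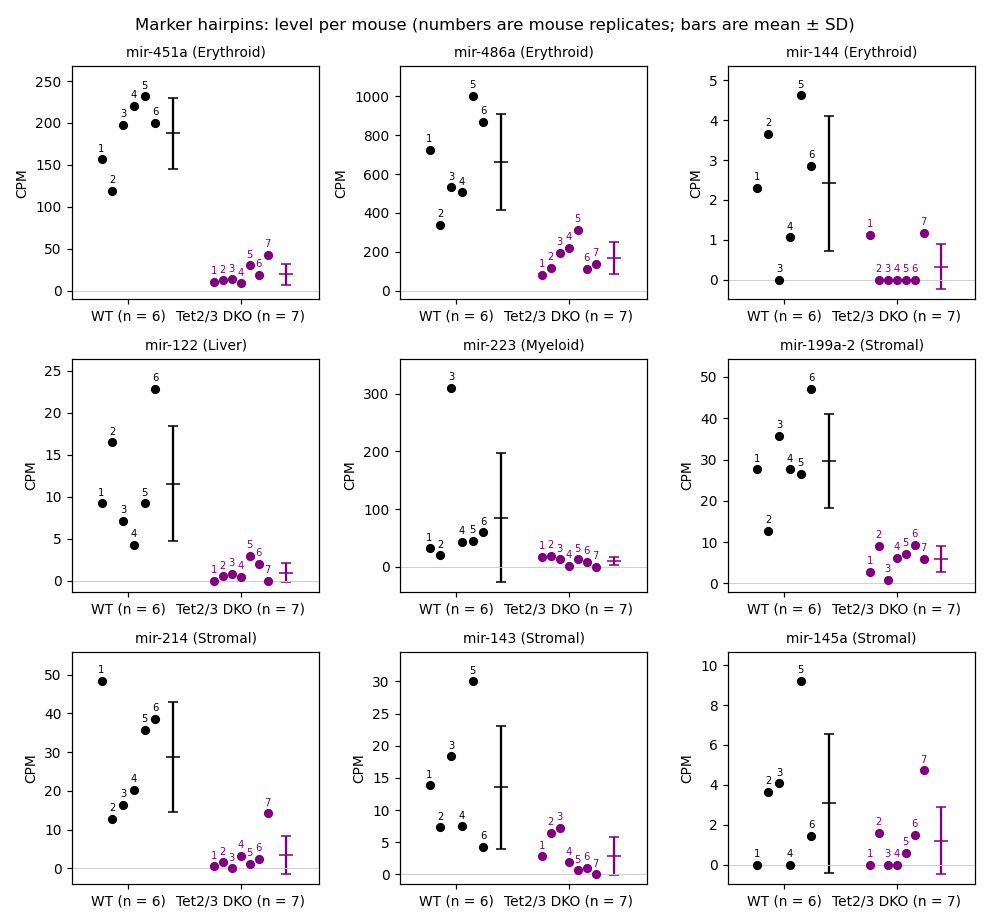
CPM (vertical axis, linear) of the 9 marker hairpins in 6 WT (black) and 7 *Tet2/3* DKO (purple) mice, numbered by replicate, with mean ± SD beside each group. On this TMM scale levels of mir-451a, mir-486a, mir-122, mir-223 and mir-199a-2 do not overlap between genotypes. By library total alone mir-486a and mir-223 do overlap. WT replicate 3 stands out for mir-223 at 310.4 CPM.

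**Figure D4:**
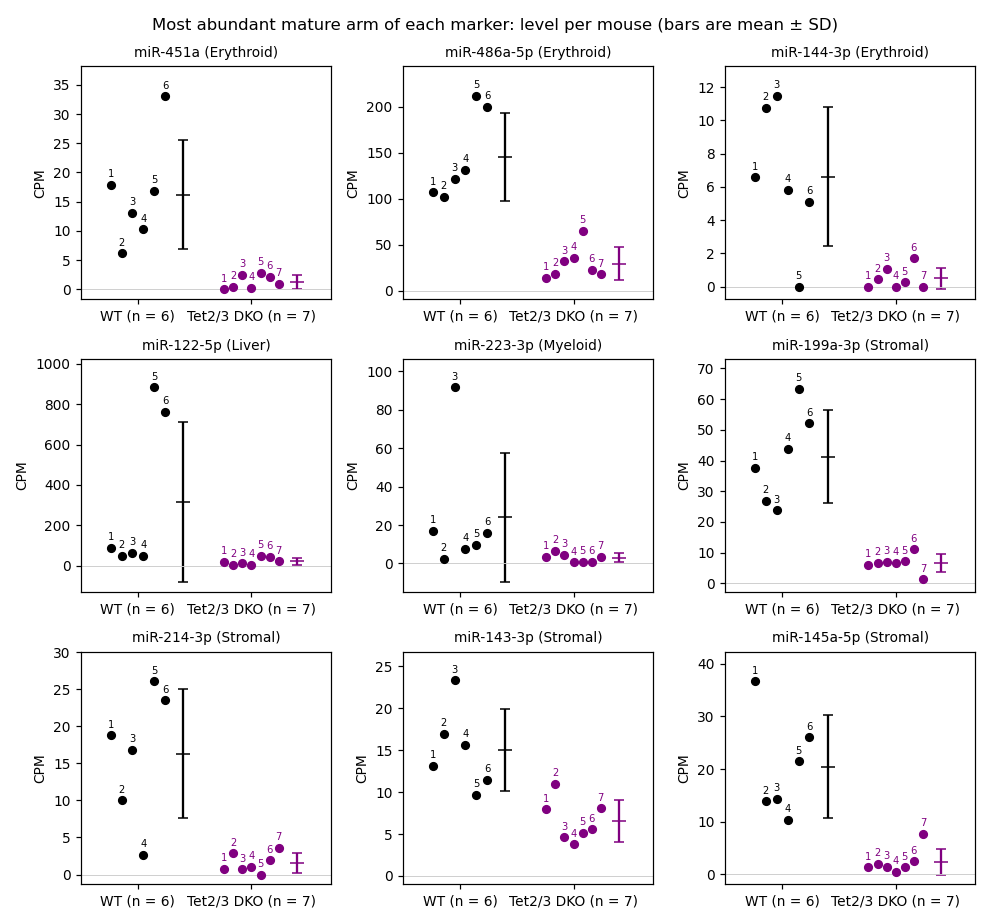
CPM (vertical axis, linear) of the most abundant arm of each marker in the same mice, drawn in the same way. WT replicates 5 and 6 stand out for miR-122-5p at 883 and 762 CPM, and WT replicate 3 for miR-223-3p at 91.7 CPM.

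Within WT, single markers of the same cell type did not all peak in the same mouse. WT replicate 5 had the highest level of all 3 erythroid hairpins, but mir-144 rests there on 4 counts, and in the mature table miR-486a-5p was highest in replicate 5, miR-451a in replicate 6 and miR-144-3p in replicate 3. The stromal hairpins were highest in replicate 6 (mir-199a-2), replicate 1 (mir-214) and replicate 5 (mir-143 and mir-145a). WT replicate 2 had the lowest level of 5 hairpins from 3 cell types, namely mir-451a, mir-486a, mir-223, mir-199a-2 and mir-214, and it was the second shallowest library (607929 precursor counts). Summed over each cell type, however, the erythroid and stromal hairpins ranked the WT mice in the same order, replicates 5, 6, 1, 3, 4 and 2. The erythroid sums, mostly mir-486a, were 1239, 1071, 885, 729.98, 728 and 463 CPM in that order, and the stromal sums were 102, 91.4, 89.8, 74.5, 55.3 and 36.6 CPM. Sums of these different cell types thus ranked the mice alike, while the liver and myeloid hairpins were highest in replicates 6 and 3.

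Pairs of markers were then compared across the 6 WT mice. Of the 9 hairpins, 6 had a mean of at least 10 counts per WT library, which gave 15 pairs. After Benjamini-Hochberg adjustment over the 15 pairs 0 were past the threshold in an exact permutation test of Pearson's r, 1 had an unadjusted p under 0.05, and with Spearman's rho 0 were past it too. The erythroid pair mir-451a and mir-486a had r = 0.66 (exact permutation p = 0.15, adjusted p = 0.563) and rho = 0.60 (exact permutation p = 0.242). Without WT replicates 1 and 2, the farthest from the median of mir-451a, r was 0.33. Removing the farthest mice narrows the range and can lower r by itself, so such values do not show what a relation rests on.

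The stromal pairs were no closer. Hairpins mir-199a-2 and mir-214 are both annotated in *Dnm3os*, but counts of mir-199a-2 cannot be separated from those of mir-199a-1 and mir-199b. The pair mir-199a-2 and mir-214 had r = 0.53 (exact permutation p = 0.301, adjusted p = 0.664) and rho = 0.31 (exact permutation p = 0.564). Its r turned to -0.70 without WT replicates 2 and 6. From its separate locus mir-143 had r = -0.05 with mir-199a-2 (exact permutation p = 0.935, adjusted p = 0.935) and r = 0.14 with mir-214 (exact permutation p = 0.782, adjusted p = 0.890). Without the 2 farthest mice these were 0.06 and -0.14, and rho was -0.26 (exact permutation p = 0.658) and 0.03 (exact permutation p = 1.0).

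Markers of different cell types were related to a similar extent. Over 11 such hairpin pairs r ranged from -0.17 to 0.87 with a median of 0.34. The highest, between erythroid mir-486a and stromal mir-214, was r = 0.87 (exact permutation p = 0.0333, adjusted p = 0.5) with rho = 0.71 (exact permutation p = 0.136), and 0.86 without WT replicates 2 and 5. All pairs share depth and scaling within a library, and the 3 stromal hairpins, with 3 to 35 counts per library, carry a large counting error. Only 6 mice limit these tests, so a relation that misses the threshold is not shown to be absent.

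In the mature table, added after the values were seen, 9 arms gave 36 pairs, of which 0 were past the threshold after adjustment and 7 had an unadjusted p under 0.05 (exact permutation test). The lowest adjusted p was 0.05, for an inverse relation between erythroid miR-144-3p and stromal miR-199a-3p (r = -0.83, exact permutation p = 0.00139, the smallest that 6 mice allow; rho = -1.0, exact permutation p = 0.00278; r = -0.98 without WT replicates 3 and 5). Liver miR-122-5p and erythroid miR-486a-5p had r = 0.93 (exact permutation p = 0.0403, adjusted p = 0.244; rho = 0.77, exact permutation p = 0.103), but -0.26 without WT replicates 5 and 6. The arms that share a transcript had r = -0.32 (miR-451a with miR-144-3p, exact permutation p = 0.451), 0.20 (miR-199a-3p with miR-214-3p, exact permutation p = 0.756) and -0.57 (miR-143-3p with miR-145a-5p, exact permutation p = 0.231), with adjusted p-values of 0.613, 0.824 and 0.447. Their rho values were -0.49, 0.60 and -0.54 (exact permutation p = 0.356, 0.242 and 0.297). Without the 2 farthest mice r was -0.42, 0.11 and -0.77. Reads of miR-199a-3p can also come from mir-199a-1 and mir-199b, so its pair with miR-214-3p is not of a shared transcript alone. The median r was -0.02 over the 6 pairs of the same cell type from separate loci and 0.36 over the 27 pairs of different cell types.

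Those 6 pairs pointed in opposite directions, and 2 of them had an unadjusted p under 0.05, both inverse. Stromal miR-199a-3p and miR-143-3p had r = -0.92 (exact permutation p = 0.0111, adjusted p = 0.138) with rho = -0.94 (exact permutation p = 0.0167), and r = -0.76 without WT replicates 3 and 5. Erythroid miR-486a-5p and miR-144-3p had r = -0.76 (exact permutation p = 0.0125, adjusted p = 0.138) with rho = -0.83 (exact permutation p = 0.0583), and r = -0.36 without WT replicates 5 and 6. Stromal miR-214-3p and miR-145a-5p had r = 0.75 (exact permutation p = 0.0736, adjusted p = 0.245) with rho = 0.77 (exact permutation p = 0.103), and r = 0.22 without WT replicates 2 and 4. Erythroid miR-451a and miR-486a-5p had r = 0.68 (exact permutation p = 0.142, adjusted p = 0.34) with rho = 0.49 (exact permutation p = 0.356), and r = 0.18 without WT replicates 2 and 6. In *Tet2/3* DKO mice the median r over arms was 0.55 for the 3 pairs annotated to share a transcript. It was 0.33 for the 6 pairs from separate loci and 0.01 for the 27 of different cell types. Of these 36 pairs 0 were past the threshold (lowest adjusted p = 0.564, exact permutation test). The hairpins differed, with r of 0.49 for mir-199a-2 with mir-214, the 1 pair annotated in a shared transcript. Their median r was -0.49 for the 3 pairs from separate loci and -0.16 for the 11 of different cell types. Of the 15 hairpin pairs 0 were past the threshold (lowest adjusted p = 0.122, exact permutation test). Whether the genotypes differ in these relations was not tested.

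**Figure D5:**
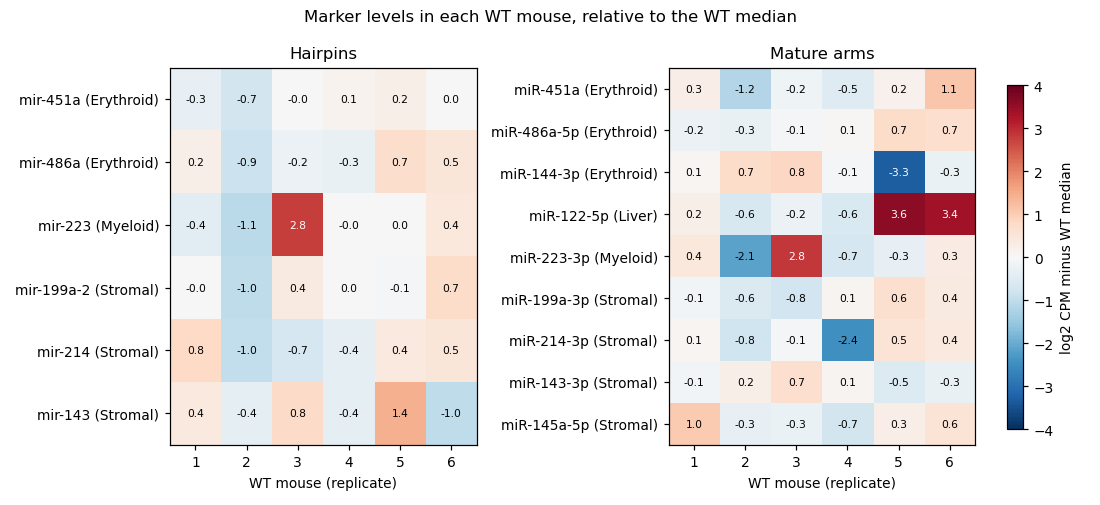
Level of each marker in each WT mouse (columns) as log2 CPM minus the median of the 6 WT mice, for 6 hairpins (left) and 9 arms (right), with red above and blue below the median. The highest departures upward are miR-122-5p in replicates 5 and 6 and mir-223 with miR-223-3p in replicate 3, the deepest downward is miR-144-3p in replicate 5 (0 counts), and rows of the same cell type do not share a high column throughout.

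The mice with the highest liver and myeloid markers were thus different ones, and the ratios between markers moved with them. In WT libraries miR-122-5p had between 0.361 and 4.17 counts for each count of miR-486a-5p, and miR-223-3p between 0.0226 and 0.752. WT replicate 3 also had the highest level of the endothelial hairpin mir-126a, 235 CPM against 102 to 152 CPM in the other WT mice, and the part of other cells in these levels was not tested.

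Lists of other cell types give the setting. The T lymphoid list was summed over 5 of its 6 hairpins. WT libraries held 57934 to 90411 CPM of them, against 61090 to 119920 CPM for *Tet2/3* DKO. Of these 5, 1 was lower, mir-150 (-1.28), and 3 were higher, mir-181a-1, mir-181b-1 and mir-155 (adjusted p under 0.05 by edgeR). The sums leave out mir-142a, whose WT mean alone, 103390 CPM, was above every WT sum. Its *Tet2/3* DKO mean was 54093 CPM (log2 fold change -0.93, adjusted p = 8.33e-06 by the same fit). The sums therefore do not give the direction of T cell miRNAs as a whole. The sorted cells carried T cell miRNAs far above any marker described here. Of the 7 epithelial hairpins 5 were tested and 0 were past the threshold, with 1 at an unadjusted p under 0.05. Their summed level was 601 to 810.4 CPM in WT and 589 to 704 CPM in *Tet2/3* DKO. Some of their mature arms were lower in *Tet2/3* DKO (adjusted p under 0.05 by edgeR). These were miR-200b-5p (log2 fold change -1.85), miR-200a-3p (-1.31), miR-200c-3p (-0.886) and miR-141-3p (-0.645). The arms miR-200b-3p (-0.505), miR-429-3p (-0.463) and miR-203-3p (0.322) were not past the threshold. The endothelial hairpin mir-126a had a log2 fold change of -0.13 (SE 0.19 by the edgeR quasi-likelihood fit, adjusted p = 0.573). Its arm miR-126a-3p was higher in *Tet2/3* DKO (log2 fold change 0.688, adjusted p = 0.00249 by the same fit). For miR-126a-5p the log2 fold change was 0.195 (adjusted p = 0.364 by the same fit). None of the 5 muscle and 6 neural hairpins was tested, and each list summed to at most 27.6 CPM in any library, with each hairpin counted in at least 1 library. The muscle sum had a median of 2.36 CPM (1.62 to 11.4) in *Tet2/3* DKO and 10.3 CPM (4.08 to 27.6) in WT, and the neural sum medians of 8.99 and 13.2 CPM. These sums were not tested.

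For 4 markers, the hairpins outside these groups with the most similar pattern over the 13 libraries, after genotype means were subtracted, are given as a description. For mir-451a they were mir-690 (r = 0.68), mir-706 (0.63) and mir-320 (0.62). For mir-223 they were mir-30c-2 (0.82), mir-30c-1 (0.82) and mir-128-1 (0.78). For mir-214 they were mir-7071 (0.86), mir-6236 (0.71) and mir-466d (0.70), of which mir-7071 (log2 fold change -4.64) and mir-6236 (-2.16) were lower in *Tet2/3* DKO too and mir-466d (0.62) higher. For mir-145a, with 26 counts in all, they were mir-450a-1 (0.67), mir-19a (0.65) and mir-3060 (0.59), values that so few counts do not carry.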

How the data were processed

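Small RNA-seq libraries of 6 WT and 7 *Tet2/3* DKO mice were analysed. The authors processed the reads with nf-core/smrnaseq with default parameters and deposited raw counts per hairpin and per mature sequence, 1 column per mouse, without normalization; the aligner, the miRNA database release and the handling of strand and multiple matches are not given in the sources used here. Each column carries the genotype and number of its mouse, and 0 columns were unused. No 2 libraries of the same genotype agreed within sampling noise (chi-square per degree of freedom of at least 9.78). Reads carried no molecular identifiers in these tables, so limits from counts cover counting error only.

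Starting from these deposited counts, scarce miRNAs were removed with filterByExpr (minimum count 10, minimum total 15). The rest were scaled by TMM, and genotypes were compared over the 13 libraries in edgeR 4.0.16 with a robust quasi-likelihood fit. Benjamini-Hochberg adjustment covered 1 table at a time; the SE is the log2 fold change over the square root of F. Members below the filter were compared by an exact permutation test of log2 CPM (prior count 2), and results are given for the 5 with at least 10 counts. These p-values were not adjusted for the number of tests. R 4.3.3, limma 3.58.1, DESeq2 1.42.0, Python 3.11.15 and matplotlib 3.10.9 were used, and the fit was tested on simulated data. The named miRNAs are the listed members, their near copies or antisense partners and the 3 most similar hairpins of 4 members. Some hairpins of other cell types are also named, to give the setting. Members and lists were chosen with earlier results of these data known.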

Additional observations from a re-analysis of the deposited data

Results flagged for a closer look

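Each tested marker was checked within each genotype for a mouse far from the others, in 28 groups. In 1 of them a mouse stood apart, where chance gives about 1.4 (1 in 20 groups). *Tet2/3* DKO replicate 7 had the lowest miR-199a-3p of its genotype, 1.04 log2 CPM from 3 counts, against 2.78 in the next mouse. The hairpin mir-199a-2 in the same library, at 5.91 CPM, was inside the range of the other *Tet2/3* DKO mice. The high miR-122-5p of WT replicates 5 and 6 escapes this check because it looks for a single mouse, and the high mir-223 of WT replicate 3 stayed under its limit on the log scale.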

How the results depend on the processing

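The falls of the 5 tested hairpins and 9 tested arms kept their sign in every alternative that tested them, and over the 4 library scalings all were past the threshold, with mir-451a between -3.56 and -2.97 and miR-143-3p between -1.35 and -0.94. Library size in place of TMM moved the median of all hairpins from 0.02 to 0.36 and of all mature miRNAs from -0.01 to 0.24. With it mir-486a, mir-223 and miR-145a-5p overlapped between genotypes, which they did not with TMM. Calls were lost for miR-486a-3p with no filter and for miR-122-5p without WT replicates 5 and 6 (-1.58). With at least 10 counts required in every library, 2 marker hairpins and 3 marker arms were left, all called lower. In that setting 181 hairpins were called in either direction, and the shares over all miRNAs are not given here. Leaving out each mouse in turn gave 5 lower marker hairpins each time and 8 to 10 lower marker arms. Over all miRNAs those fits called 191 to 211 hairpins and 209 to 234 mature miRNAs in either direction. Some values moved by over 1.5 times as folds: mir-223 and miR-223-3p without WT replicate 3 (-1.86 and -1.90), mir-214 and miR-145a-5p without *Tet2/3* DKO replicate 7 (-4.04 and -3.83), miR-144-3p without WT replicate 5 (-2.94), and miR-122-5p with limma-voom (-3.22). For members below the filter, a prior count of 0.5 moved mir-144 to -1.87, mir-122 to -3.32, mir-143 to -2.41 and miR-144-3p to -3.21, and edgeR without the filter gave -2.50, -3.17, -2.05 and -3.53, and -1.29 for mir-145a; the values of such sparse miRNAs depend on the prior count.

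The same replicate numbers occur in both genotypes, but same-numbered mice did not deviate together in each pair (correlations from -0.05 to 0.34 for hairpins and from 0.01 to 0.34 for arms), so the numbers were not taken as pairs. Mice 5 and 6 correlated positively in both tables (0.144 to 0.342), and miR-122-5p was highest in mice 5 and 6 of both genotypes. Of 6 WT mice, 3 in the hairpin table and 2 in the mature table correlated best with the *Tet2/3* DKO mouse of their own number, and what the numbers share is not given in the labels. With replicate number as a block, which drops *Tet2/3* DKO replicate 7, 217 hairpins (209 without) and 225 mature miRNAs were called, with 5 marker hairpins and 8 marker arms, since miR-214-3p was then not tested. The block moved mir-223 to -2.38, mir-214 to -4.06 and miR-145a-5p to -3.83. Of the 5 members below the filter 4 were past the threshold, but 2 with the block. There mir-144 (-1.06) and miR-144-3p (-2.25) had an exact sign permutation p of 0.0625. The share over all miRNAs below the filter is not given here. Over the settings 0 hairpin pairs became significant. In *Tet2/3* DKO mice r was -0.0587 for mir-486a with mir-214, near 0, and -0.72 for mir-214 with mir-143. Without 1 WT mouse, r ranged from -0.0310 to 0.75 for mir-199a-2 with mir-214, from -0.11 to 0.52 for mir-214 with mir-143, from -0.62 to 0.53 for mir-199a-2 with mir-143, and from 0.09 to 0.83 for mir-451a with mir-486a. The cause of these changes was not tested. Depth limits what can be said of mir-144 and mir-145a.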

Other observations

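The 2 tables did not give the markers in the same proportions. In WT, miR-451a had 0.191 counts in the mature table for each count of its hairpin in the precursor table (167 against 875), while miR-486a-5p had 0.527, miR-199a-3p 3.21, miR-145a-5p 13.2 and miR-122-5p 69.6 (3340 against 48). For miR-122-5p this ratio was between 6.78 and 216 in single WT libraries, and WT replicate 5 was the highest. In *Tet2/3* DKO the ratios of the summed counts were 0.157 for miR-451a and 46.25 for miR-122-5p. Most of the mir-451a signal comes from the precursor table and nearly all of the mir-122 signal from the mature table. Whether reads entered both tables was not tested.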
